A study of Rattus norvegicus with 6 samples.

Results

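The rat miRNAs rno-miR-128-3p, rno-miR-7a-5p, rno-miR-129-5p and rno-miR-132-3p, written below without their species prefix, are best known from the nervous system, and they were followed here in extracellular vesicles released by dedifferentiated fat (DFAT) cells, whose small RNA was sequenced. They were chosen by name, and together they are 4 of the 417 different mature sequences in the count table analysed. DFAT cells are fibroblast-like cells that mature fat cells give rise to when floating adipocytes attach in ceiling culture and lose their lipid. The cells came from Sprague-Dawley rats, and vesicles were taken from DFAT cells kept for 14 days in osteogenic induction medium (day 14, 3 libraries) and from DFAT cells at 0 days of that medium (day 0, 3 libraries). The design text describes ultracentrifugation for the vesicles of the conditioned cells. The labels name no further allele or agent, and they do not say whether replicates came from separate animals or cultures, so p-values measure the spread between these libraries, which may be technical.

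A miRNA guides Argonaute to messenger RNAs that pair with its seed, bases 2 to 8 from its 5′ end, and lowers their translation and stability. miR-128 is among the abundant miRNAs of the mammalian brain and dampens the excitability of mouse neurons, and miR-129-5p represses a neuronal potassium channel in rodents and has been described as favouring osteoblast differentiation. miR-132 is induced by the transcription factor CREB and promotes neurite growth. miR-7 is found in neurons and hormone-secreting cells and binds the circular RNA CDR1as. None of the 4 is restricted to neurons.

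The mature sequences are shown because the counts were assigned by them; capitals mark the seed. Each was identical to the RefSeq entry of that name (build GRCr8).
miR-128-3p: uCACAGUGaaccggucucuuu
miR-7a-5p: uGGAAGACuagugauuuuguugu
miR-129-5p: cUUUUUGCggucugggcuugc
miR-132-3p: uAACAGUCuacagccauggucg

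The 4 seeds differ from each other, and no other sequence among the 417 had one of them at bases 2 to 8 or was contained in, or contained, one of the 4. In RefSeq the miR-7a-5p seed is shared with miR-7b and the miR-132-3p seed with miR-212-3p, neither of which was analysed here. On GRCr8, the miR-128-3p sequence lies at chr13:42251933-42251953 on the plus strand, inside the span of R3hdm1, and at chr8:120963807-120963827 on the minus strand, inside the span of Arpp21. miR-7a-5p lies at chr17:6278710-6278732 on the plus strand, inside the span of Hnrnpk, and at chr1:142215818-142215840 on the plus strand, inside a long non-coding RNA gene. miR-129-5p lies at chr4:58589716-58589736 on the plus strand, inside a long non-coding RNA gene, and at chr3:100657448-100657468 on the minus strand, inside no other listed gene. miR-132-3p has 1 locus, at chr10:60522091-60522112 on the plus strand, inside no other listed gene. Whether the loci within other genes are intronic or exonic was not determined here.

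The hairpins of miR-128 and miR-129 are shown because they explain a limit of the counts: in each pair the hairpins differ, but the counted arm (miR-128-3p at the 3′ side, miR-129-5p at the 5′ side) is the same. Capitals mark the annotated arms.
Mir128-1: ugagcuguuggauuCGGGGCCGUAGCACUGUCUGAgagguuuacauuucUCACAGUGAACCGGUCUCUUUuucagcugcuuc
Mir128-2: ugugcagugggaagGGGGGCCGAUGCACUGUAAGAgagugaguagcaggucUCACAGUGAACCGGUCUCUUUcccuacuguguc
Mir129-1: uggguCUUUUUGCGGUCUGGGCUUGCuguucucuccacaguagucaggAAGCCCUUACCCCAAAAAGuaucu
Mir129-2: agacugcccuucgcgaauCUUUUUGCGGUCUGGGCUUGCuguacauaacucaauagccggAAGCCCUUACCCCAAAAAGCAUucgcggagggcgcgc

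The table repeats the same count for both hairpins of miR-128-3p, of miR-129-5p and of miR-7a-5p, so that the 4 miRNAs fill 7 lines, and a count cannot be assigned to 1 of the 2 genes. Arms that would tell the hairpins apart, such as miR-128-1-5p, miR-128-2-5p, miR-129-1-3p and miR-129-2-3p, were not analysed here.

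The day 14 libraries held 58730 to 73236 counts and the day 0 libraries 120766 to 164424, with 158 to 190 and 154 to 227 sequences counted. Every pair of replicates within a group differed beyond counting noise (chi-square test on counts). day 14 replicate 2 stood apart, with a trimmed mean of M-values (TMM) scaling factor of 0.471 against 0.923 and 0.922 in the other day 14 libraries and 1.34 to 1.38 at day 0. The most abundant sequence, miR-21-5p, took 63.6% ± 4.62 of all counts at day 14 and 36.7% ± 6.65 at day 0 (SD, n = 3 each). All other sequences together thus held a smaller share at day 14. Of 11 mesenchymal stromal markers, 10 were counted in both groups, although miR-145-5p had 0, 38 and 0 counts at day 0. Markers on this list went opposite ways. miR-125b-5p had 16, 3 and 7 counts at day 14 and 361, 270 and 162 at day 0. miR-214-3p had 125, 300 and 187 counts at day 14 and 92, 96 and 19 at day 0. Of 5 neuronal markers, the 2 analysed here, miR-9a-5p and miR-9a-3p, had 0 counts in each day 14 library and 5, 5 and 0 counts together in the day 0 libraries. The neuronal miR-124-3p, miR-137-3p and miR-219a-5p were not analysed here. In vesicle RNA from a whole culture, fewer vesicles of a source and less of a miRNA per vesicle cannot be told apart.

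As a group, the 4 miRNAs were a small part of the cargo and changed in make-up. They held 149, 206 and 163 counts in the day 14 libraries and 552, 722 and 413 in the day 0 libraries. This was 0.268% ± 0.0207 of all counts at day 14 and 0.381% ± 0.0512 at day 0 (SD, n = 3 each; exact 2-sided permutation p = 0.1, the smallest that 3 against 3 allows). miR-128-3p made up 33.6% ± 16.8 of the counts of the 4 at day 14 and 84.2% ± 9.51 at day 0 (exact permutation p = 0.1). The other 3 took the difference. miR-129-5p made up 30.9% ± 19.9 of them at day 14 and 7.69% ± 2.75 at day 0, miR-7a-5p 20.4% ± 6.5 and 5.57% ± 5.83, and miR-132-3p 15.1% ± 3.37 and 2.56% ± 2.84 (SD, n = 3 each). None of these parts overlapped between the groups, but the 4 parts of a library add up to the whole, so they are not separate results. No background was computed for such parts. By a different measure, share of all counts, the groups did not overlap for 3 of the 4 and for 69.7% of all sequences tested.

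**Figure D1:**
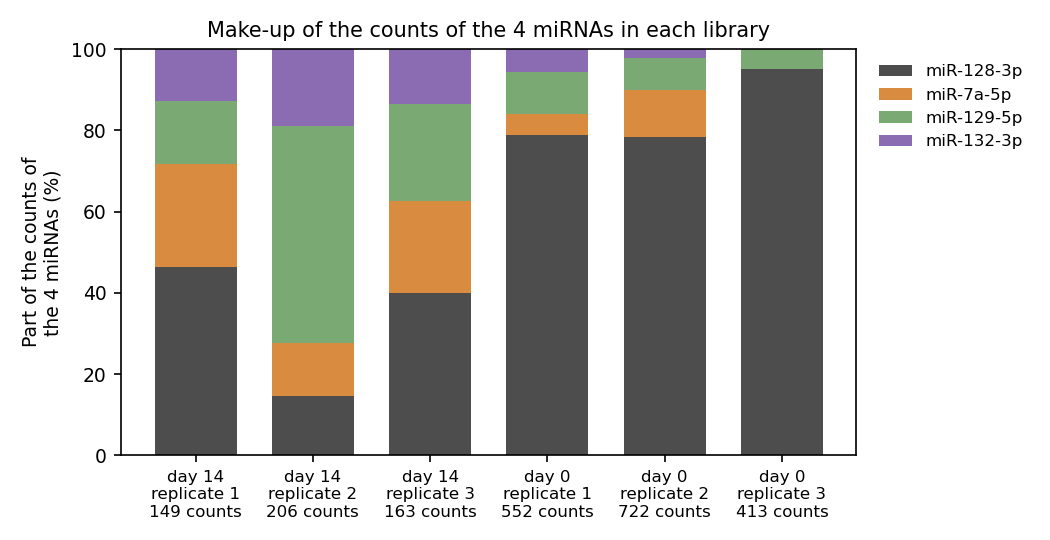
Bars show, for each library, the part (%) that each of the 4 miRNAs took of their joint counts, with the joint count under each bar. miR-128-3p took 14.6% to 46.3% in the day 14 libraries and 78.4% to 95.2% in the day 0 libraries.

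Of the 4 miRNAs, all passed the filter on low counts, and 2 passed the test across all sequences, miR-129-5p as higher and miR-128-3p as lower in day 14 vesicles. The test was edgeR's quasi-likelihood F test with TMM factors and Benjamini-Hochberg adjustment over the 119 sequences tested, with a threshold of 0.05. It called 54.6% of all sequences tested, 26.1% as higher and 28.6% as lower, so 2 calls among 4 is close to that background. TMM-scaled CPM is the count divided by the library total times its TMM factor, put on a common scale. The factors, 0.471 to 0.923 at day 14 and 1.34 to 1.38 at day 0, raised day 14 values and lowered day 0 values. On that scale the groups did not overlap for any of the 4, against 78.2% of all sequences. In unscaled share of counts, which uses the total alone, the groups did not overlap for 3 of 4, against 69.7%. All 4 log2 fold changes (day 14 over day 0) kept their sign under the 17 other settings and left-out libraries tried, although their sizes and calls did not. Scaling by total counts, with a median shift of -0.86 in log2 fold change over the tested sequences, moved the calls over all sequences to 18 higher and 46 lower, against 31 higher and 34 lower with TMM.

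miR-128-3p, the most abundant of the 4 at day 0, had 69, 30 and 65 counts in the day 14 libraries and 436, 566 and 393 in the day 0 libraries. All day 14 libraries were below all day 0 libraries. Its share was 0.0882% ± 0.0409 at day 14 and 0.319% ± 0.0295 at day 0 (SD, n = 3 each; exact permutation p = 0.1). By library the shares ran from 0.041% (95% exact binomial interval 0.0276% to 0.0585%) to 0.113% at day 14 and from 0.286% (0.260% to 0.314%) to 0.344% at day 0. Such intervals cover counting error only. Its rank by count among the sequences of a library was 38, 53 and 40 at day 14 and 34, 25 and 25 at day 0.

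In TMM-scaled CPM, miR-128-3p stood at 1224, 870.1 and 1200 in the day 14 libraries and at 2134, 2560 and 2351 in the day 0 libraries. It fell by 1.09 ± 0.37 on the log2 scale (SE, n = 3 per group; edgeR adjusted p = 0.0376), in this fit the smallest change of the 4 and the one with the smallest SE. Under other scalings it was -1.09 with RLE factors (adjusted p = 0.0506), -1.29 with upper-quartile factors (adjusted p = 0.0459) and -1.86 with total counts (adjusted p = 0.0112). With TMM after a stricter filter on low counts it was -0.55 (adjusted p = 0.187). The call was lost when any single library except day 14 replicate 2 was left out (values of -0.94 to -1.17), and adjusted p ran from 0.00702 to 0.245 over all alternatives. Several miRNAs listed as markers of other cell types also held larger shares at day 0. With total counts, 38.7% of all sequences tested were called lower at day 14. The 4 erythrocyte markers summed to 0.00491% to 0.0153% at day 14 and 0.174% to 0.471% at day 0, with 3 of 4 counted in each group. The day 0 counts were mainly miR-486 (624, 223 and 357) and miR-144-5p (93, 56 and 75). miR-451-5p had only 0, 7 and 0 counts at day 0 and 0 at day 14. miR-144-3p went the other way, with 0, 2 and 0 counts at day 14 and 0 at day 0. The liver miRNA miR-122-5p held 0.409% to 0.594% at day 14 and 2.77% to 10.7% at day 0. The 2 muscle markers analysed, of 4 listed, went opposite ways: miR-206-3p had 6, 0 and 4 counts at day 14 and 454, 403 and 294 at day 0, whereas miR-1-3p had 32, 11 and 23 counts at day 14 and 0 in each day 0 library. Summed, they held 0.015% to 0.0622% at day 14 and 0.243% to 0.298% at day 0. Of 5 leukocyte markers, the 3 analysed (miR-142-5p, miR-150-5p and miR-155-5p) were at 0 at day 14 and summed to 0% to 0.0197% at day 0. The origin of these miRNAs, and any part of it in the miR-128-3p result, was not tested.

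**Figure D2:**
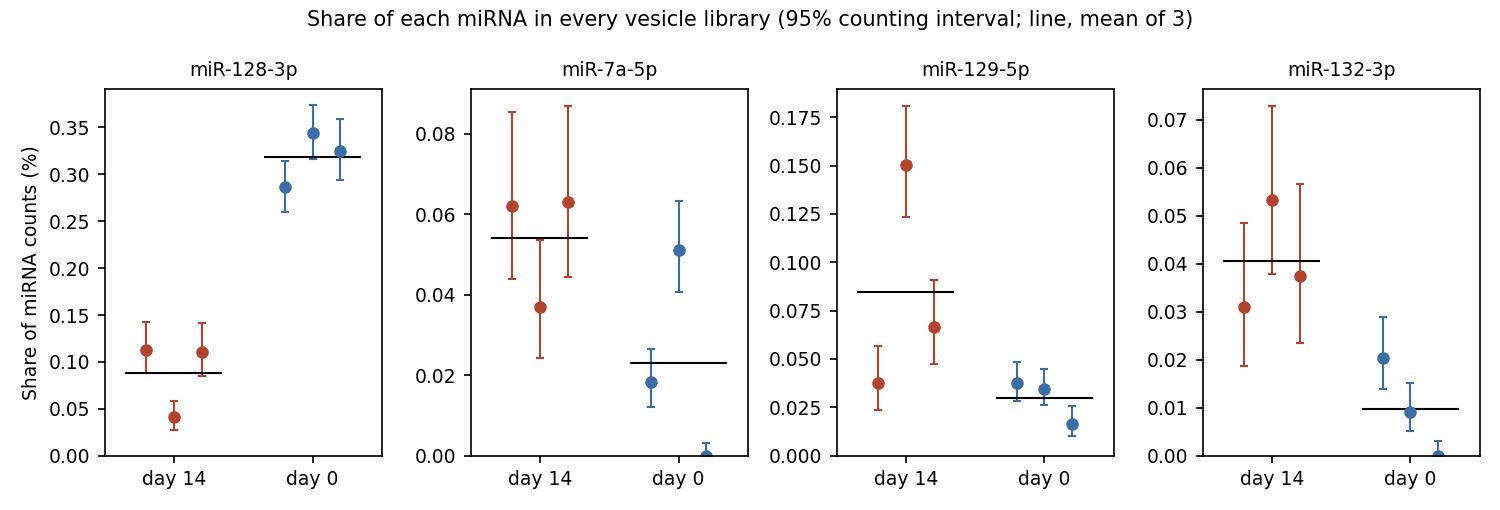
Each point is the share of miRNA counts (%) of 1 miRNA in 1 library, with its 95% exact binomial interval, and the line is the mean of 3 libraries; each panel has its own axis from 0. miR-128-3p lies lower in all day 14 libraries, miR-129-5p and miR-132-3p lie higher in all day 14 libraries, and miR-7a-5p overlaps between the groups.

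miR-129-5p had 23, 110 and 39 counts in the day 14 libraries and 57, 57 and 20 in the day 0 libraries, so its raw counts overlapped and the difference appears only relative to depth. Its share was 0.0847% ± 0.0585 at day 14 and 0.0296% ± 0.0113 at day 0 (SD, n = 3 each; exact permutation p = 0.1). The groups barely separated. The lowest day 14 library held 0.0376% (95% exact binomial interval 0.0239% to 0.0565%) and the highest day 0 library 0.0374% (0.0284% to 0.0485%). With 1 row kept per miRNA name, the exact permutation p of the share was 0.2, so the groups no longer separated fully. In TMM-scaled CPM it stood at 407.9, 3190 and 720.2 at day 14 and at 279, 257.8 and 119.6 at day 0. day 14 replicate 2 was the highest library on both scales.

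The log2 fold change of miR-129-5p was 2.70 ± 0.85 (SE, n = 3 per group; edgeR adjusted p = 0.0303). Without day 14 replicate 2 it was 1.38 (adjusted p = 0.112) and without day 0 replicate 3 it was 2.39 (adjusted p = 0.0689), neither called. With total counts it was 1.52 (adjusted p = 0.0779), and adjusted p ran from 0.0031 to 0.112 over all alternatives.

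miR-132-3p had 19, 39 and 22 counts in the day 14 libraries and 31, 15 and 0 in the day 0 libraries. Its share was 0.0406% ± 0.0114 at day 14 and 0.00983% ± 0.0102 at day 0 (SD, n = 3 each; exact permutation p = 0.1), with all day 14 libraries above all day 0 libraries. In TMM-scaled CPM it stood at 337, 1131 and 406.3 at day 14 and at 151.7, 67.9 and 0 at day 0. Its log2 fold change, 3.05 ± 1.25, was the largest of the 4 but did not pass the threshold (SE, n = 3 per group; edgeR adjusted p = 0.0695), while DESeq2 gave 2.96 and an adjusted p of 0.0234. The value was called without day 0 replicate 1 (3.73, adjusted p = 0.0448) or day 0 replicate 3 (2.47, adjusted p = 0.0433), and adjusted p ran from 0.0211 to 0.198 over all alternatives. Of the 6 libraries, 3 at day 14 and 1 at day 0 reached the CPM minimum of the filter for miR-132-3p, and 3 and 2 did for miR-7a-5p.

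The miR-132 hairpin is shown because both of its arms were counted, miR-132-5p being the first run of capitals and miR-132-3p the second.
Mir132: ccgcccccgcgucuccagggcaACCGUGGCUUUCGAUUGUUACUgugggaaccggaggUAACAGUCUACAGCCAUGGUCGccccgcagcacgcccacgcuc

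Over the 6 libraries, miR-132-3p had 126 counts and the opposite arm miR-132-5p had 8, of which 2 were at day 14 and 6 at day 0. miR-212-5p, from the neighbouring hairpin on chromosome 10, had 3, 0 and 3 counts at day 14 and 0 in each day 0 library. These partners had too few counts to pass the filter.

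miR-7a-5p had 38, 27 and 37 counts in the day 14 libraries and 28, 84 and 0 in the day 0 libraries. The day 14 libraries lay close together, at a share of 0.0369% to 0.063%, whereas the day 0 libraries ranged from 0 to 0.0511% and overlapped with them. The mean share was 0.054% ± 0.0149 at day 14 and 0.0232% ± 0.0259 at day 0 (SD, n = 3 each; exact permutation p = 0.2, where 0.1 is the smallest possible). In TMM-scaled CPM it stood at 673.9, 783.1 and 683.3 at day 14 and at 137, 380 and 0 at day 0. The log2 fold change was 2.03 ± 1.23 (SE, n = 3 per group; edgeR adjusted p = 0.179), and none of 17 alternatives called it. Without day 0 replicate 2 it was 3.20 and without day 0 replicate 3 it was 1.45.

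day 0 replicate 3 had no listed count for miR-7a-5p or miR-132-3p. A count of 0 among its 120766 allows a share of up to 0.00248% (3 counts). At the joint share of the other two day 0 libraries, 42.7 counts of miR-7a-5p and 17.5 of miR-132-3p would have fallen in that library. These blanks were not peculiar to the pair: of 88 sequences with at least 28 counts in both other day 0 libraries, 8 were blank in day 0 replicate 3, and of 106 with at least 15 counts, 16 were blank.

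**Figure D3:**
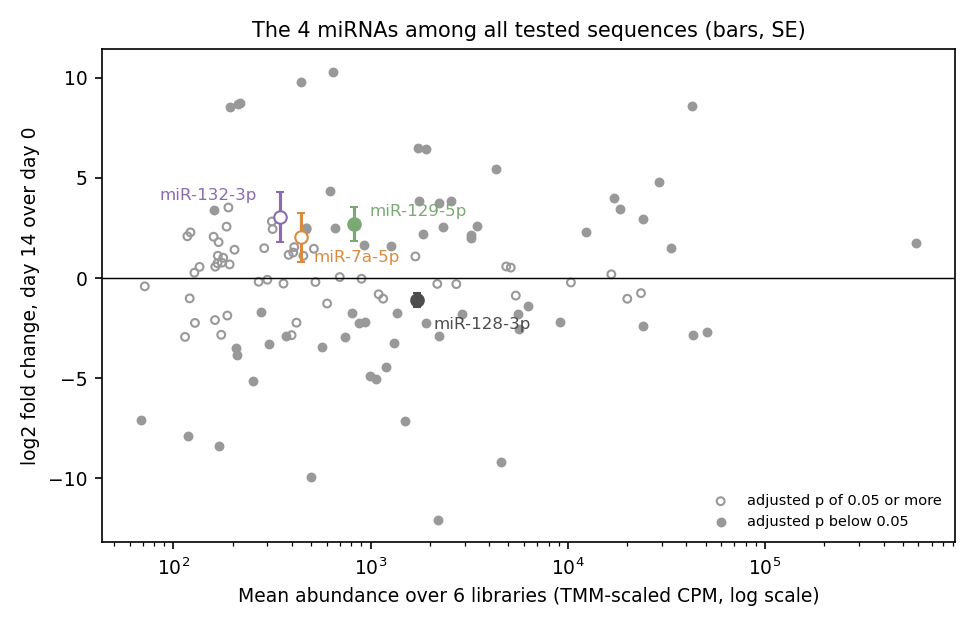
Each point is 1 of the 119 tested sequences, with its mean TMM-scaled CPM over 6 libraries (log axis) against its log2 fold change (day 14 over day 0); filled points passed an adjusted p of 0.05, bars on the 4 named miRNAs are SE, and the most extreme fitted values belong to sequences with few or no counts in 1 group. The 4 miRNAs lie from -1.09 to 3.05, within the spread of the other sequences.

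The counts of miR-129-5p and miR-128-3p can also be set against each other within a library, where no scaling enters. The ratio of miR-129-5p to miR-128-3p counts was 0.333, 3.67 and 0.6 in the day 14 libraries and 0.131, 0.101 and 0.0509 in the day 0 libraries. Every day 14 library was above every day 0 library. This ratio sets the member called higher over the member called lower in the same libraries, so its separation is no further support. The mean log2 ratio was 3.37 higher at day 14 (exact permutation p = 0.1, and 0.1 after Benjamini-Hochberg adjustment over 3 ratios; n = 3 each). A ratio shows unequal change and not which of them moved.

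miR-128-3p was also set beside miR-27a-3p and miR-27b-3p, known inhibitors of adipogenesis, a choice made after their values had been seen. The 3 are shown because the 7 bases of the miR-128-3p seed, in capitals, stand at bases 3 to 9 of both miR-27 sequences, 1 base further from the 5′ end.
miR-128-3p: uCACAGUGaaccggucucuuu
miR-27a-3p: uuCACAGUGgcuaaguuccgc
miR-27b-3p: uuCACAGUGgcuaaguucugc

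No other sequence among the 417 held these 7 bases within its first 9. miR-27b-3p had 1013, 4106 and 1663 counts in the day 14 libraries and 584, 426 and 219 in the day 0 libraries. It stood at 14.7, 137 and 25.6 counts for each count of miR-128-3p at day 14 and at 1.34, 0.753 and 0.557 at day 0, a difference of 5.49 on the log2 scale (exact permutation p = 0.1; adjusted over 3 ratios, 0.1). miR-27a-3p had 64, 705 and 207 counts at day 14 and 32, 40 and 42 at day 0. Its ratio to miR-128-3p differed by 5.64 on the log2 scale (exact permutation p = 0.1, and 0.1 adjusted). miR-27a-3p and miR-27b-3p were already known to be higher at day 14 (log2 fold changes of 5.42 and 4.78) and were set over the member called lower. The separation of both ratios is therefore no further support, and the same holds for the parts and joint share that follow. Among the tags with these 7 bases, miR-128-3p made up 6.02%, 0.62% and 3.36% at day 14 and 41.4%, 54.8% and 60.1% at day 0. The 3 together held 3.93% ± 2.43 of all counts at day 14 and 0.620% ± 0.0749 at day 0 (SD, n = 3 each; exact permutation p = 0.1).

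**Figure D4:**
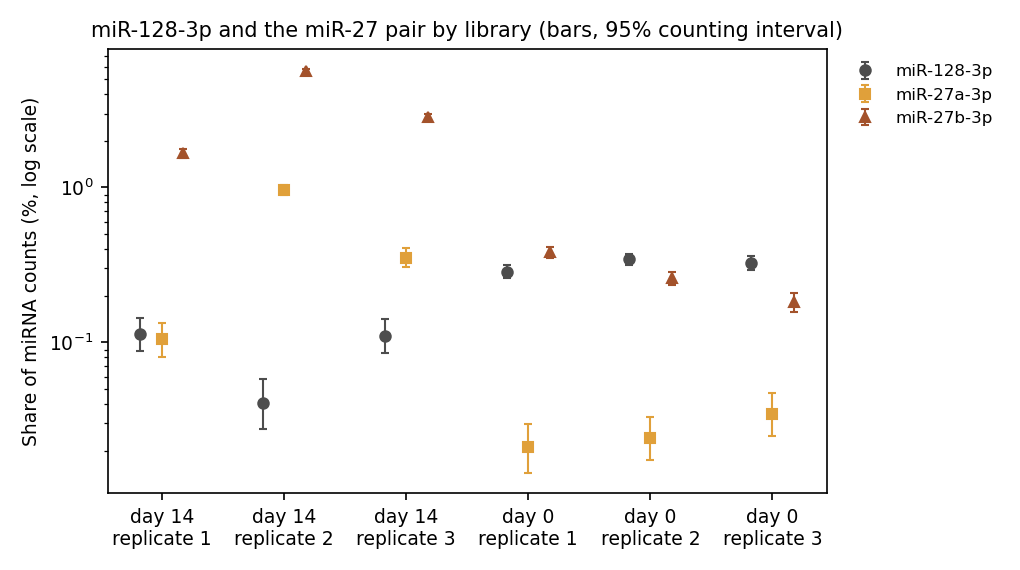
Shares of miRNA counts (%, log axis) of miR-128-3p, miR-27a-3p and miR-27b-3p are plotted for each library with 95% exact binomial intervals. In each day 14 library miR-27b-3p is above miR-128-3p by 14.7 to 137 times, and in the day 0 libraries their ratio is 0.557 to 1.34.

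Of 32 other names on a list of miRNAs and arms enriched in nervous tissue, 7 were analysed here, and 5 of them had fewer than 15 counts in all. The 2 tested ones did not pass the threshold in edgeR and differed in sign. Both were at an unadjusted p below 0.05, as were 63.9% of all sequences tested, and both were called by DESeq2, which called 68.1% of all. miR-139-5p, which lies in an intron of the phosphodiesterase gene Pde2a in mammals, had 0, 8 and 4 counts in the day 14 libraries and 133, 139 and 134 in the day 0 libraries. Its log2 fold change was -2.85 ± 1.06 (SE, n = 3 per group; edgeR adjusted p = 0.0512). A second one, miR-218a-5p, carried by the Slit genes of axon guidance, had 27, 29 and 28 counts at day 14 and 44, 68 and 17 at day 0. Its log2 fold change was 1.54 ± 0.63 (SE, n = 3 per group; edgeR adjusted p = 0.0695). In TMM-scaled CPM the groups did not overlap for either of the 2, as for 78.2% of all sequences. In unscaled share of counts they did not overlap for miR-139-5p, as for 69.7% of all sequences tested. For miR-218a-5p the shares overlapped, at 0.0396% to 0.0477% at day 14 and 0.0141% to 0.0414% at day 0 (exact permutation p = 0.2). With total counts the log2 fold change was -3.94 for miR-139-5p and 0.63 for miR-218a-5p (edgeR adjusted p = 0.00403 and 0.4).

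The annotated miRNAs whose log2 TMM-scaled CPM (plus 1) ran most like each of the 4 over the 6 libraries were ranked by Pearson correlation among 104 with a mean of at least 50 CPM, as a description in which the difference between groups is included. For miR-128-3p these were let-7b-5p (0.991), miR-328a-3p (0.986) and let-7c-5p (0.983). For miR-129-5p they were miR-3559-3p (0.985), miR-152-3p (0.983) and miR-16-5p (0.975). For miR-132-3p they were miR-24-2-5p (0.988), miR-378a-3p (0.988) and miR-501-3p (0.981), and for miR-7a-5p they were miR-501-3p (0.994), miR-140-3p (0.989) and miR-191a-5p (0.989). miR-501-3p, miR-140-3p, miR-24-2-5p and miR-378a-3p were themselves at 0 counts in day 0 replicate 3, as were miR-7a-5p and miR-132-3p, and that shared blank enters these values. Correlation does not measure the size of a change. The 3 closest to miR-128-3p had log2 fold changes of -2.82, -4.42 and -2.71, against its -1.09. For miR-129-5p the 3 were at 2.45, 2.93 and 2.50, against its 2.70. miR-191a-5p was at 0.52, against 2.03 for miR-7a-5p.

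**Figure D5:**
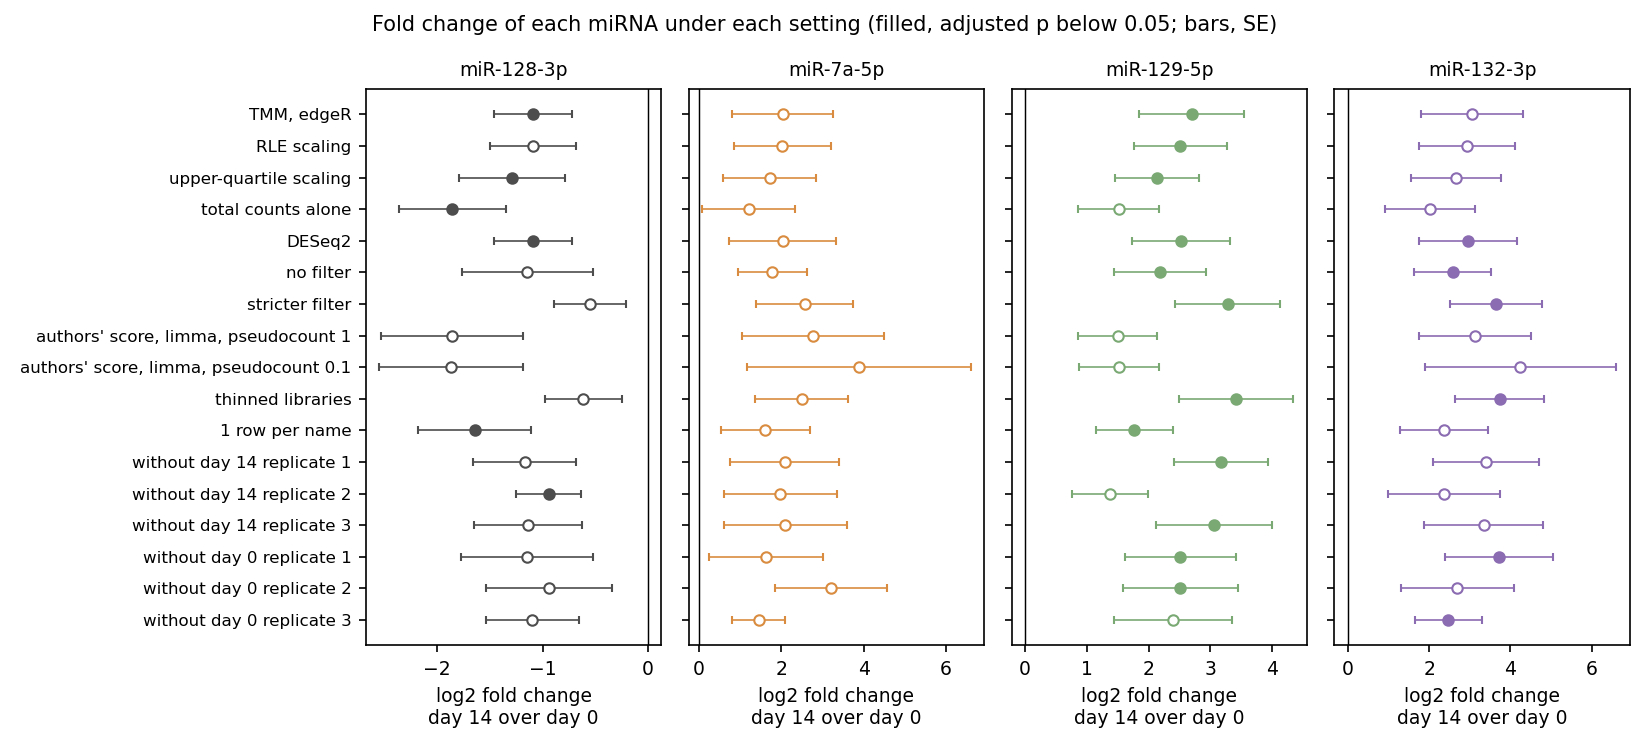
Points are log2 fold changes (day 14 over day 0) of each miRNA with SE, filled where the adjusted p was below 0.05, for the TMM fit in the top row and for other scalings, filters, tools and left-out libraries below it. All values of miR-128-3p lie below 0 and all values of miR-7a-5p, miR-129-5p and miR-132-3p above 0, while the filled points change from row to row.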

How the data were processed

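Small RNA from 6 vesicle libraries was analysed from 2 tables. Per the file headers, the first holds raw tag counts per mature miRNA and the second a normalized score made by the authors, with no method given in the header. Per the submitters' processing notes, rn6, Novoalign 3.02.12 and cutadapt 1.9.3 were used, in roles those notes leave unnamed. Per the labels, RNA was extracted with Trizol.

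The 483 lines were reduced to 1 for each of 417 mature sequences and blanks were taken as 0; the smallest listed count was 2. Groups were compared with edgeR 4.0.16 (R 4.3.3): default filter (minimum count 10, minimum total 15), TMM factors, quasi-likelihood F test, 2-sided, group as the only term. SE is the log2 fold change divided by the square root of F. Shares and ratios were compared with exact 2-sided permutation tests (scipy 1.17.1). The fit was tested on simulated data. Alternatives used DESeq2 1.42.0, limma 3.58.1 on log2(score + 1 or 0.1), other scalings and filters, thinned libraries and left-out libraries.

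The members, lists and tests were chosen with earlier results of these data known. Named miRNAs are the 4, their opposite arms and cluster partners, seed matches, abundant or called miRNAs of the nervous tissue list, and the closest in pattern or abundance. Sequences and coordinates are from RefSeq, build GRCr8, whereas the submitters name rn6.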

Additional observations from a re-analysis of the deposited data

How the results depend on the processing

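None of the 4 log2 fold changes or shares changed direction under the alternatives run. With miR-21-5p left out of the total, the mean share of miR-128-3p was 0.252% at day 14 and 0.508% at day 0. On that total miR-7a-5p was at 0.153% and 0.0395%, and its groups no longer overlapped (exact permutation p = 0.1). How many of all sequences did not overlap on that total was not determined. miR-128-3p was not called with RLE factors (-1.09), no filter (-1.14), a stricter filter (-0.55), the authors' score (-1.86 and -1.87 with pseudocounts of 1 and 0.1) or thinned libraries (-0.61, 1 draw to 58730 counts), and leaving out 1 library gave -1.17 to -0.94. miR-129-5p was not called with total counts (1.52) or the authors' score (1.5 and 1.52), and it was at 3.41 with thinned libraries, and left-out libraries gave 1.38 to 3.17. miR-132-3p was called with DESeq2 (2.96), no filter (2.58), a stricter filter (3.65) and thinned libraries (3.73), and left-out libraries gave 2.36 to 3.73. Of the 4, 1 was called with RLE factors (54.6% of all sequences tested), 1 with total counts (53.8%) and 3 with DESeq2 (68.1%). With limma on the authors' score, 0 were called at pseudocounts of 1 (51.3%) and 0.1 (44.5%). With a library left out, 1 to 2 were called (36.8% to 58%). Upper-quartile factors (59.7%) and 1 row per miRNA name (61.7%) each gave 1 higher and 1 lower. No filter (15.6%), a stricter filter (70.6%), thinned libraries (56%) and the replicate number as a block (52.1%) each gave 2 higher and 0 lower. Of the other nervous tissue miRNAs, 1 was called with RLE, upper-quartile (59.7% of all) or total-count scaling or no filter (15.6%), miR-139-5p as lower each time, 1 with a stricter filter (70.6%), miR-218a-5p as higher, 2 with DESeq2, and 0 to 1 with a library left out. miR-139-5p alone was also called as lower with the authors' score at a pseudocount of 1 and with 1 row per miRNA name (61.7% of all). With thinned libraries (56% of all) miR-218a-5p alone was called, as higher. At a pseudocount of 0.1 neither was called. The cause of these changes was not tested. Of the calls over all sequences 47.7% were higher with TMM, 28.1% with total counts, 34.4% and 34% with the authors' score and 58.9% with thinned libraries.

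The replicate numbers do not pair the libraries by any label, and the correlations of same-numbered deviations were -0.02, 0.04 and 0.17, with 3 of 6 libraries correlating best with their own number. With the replicate number as a block, 62 rather than 65 sequences were called, miR-128-3p was at -1.10 (not called), miR-132-3p at 3.74 (called), and 1 other nervous tissue miRNA, miR-139-5p, was called as lower. With 15 to 110 counts where they were listed, apart from miR-128-3p, the miRNAs are limited by counting error as well as by replicate spread.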

Other observations

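The annotated miRNAs closest in mean abundance to the 4 moved in either direction. Next to miR-128-3p, the metabolic miR-378a-3p was at a log2 fold change of 3.82 (day 14 over day 0; edgeR adjusted p = 0.0323) and miR-151-3p at 1.08 (adjusted p = 0.126). Next to miR-129-5p, let-7e-5p was at -2.26 (adjusted p = 0.0146) and the endothelial miR-126a-3p at -1.76 (adjusted p = 0.0142). Next to miR-132-3p, the let-7 relative miR-98-5p was at -2.87 (adjusted p = 0.00647) and miR-93-5p at 2.44 (adjusted p = 0.147). Next to miR-7a-5p, miR-672-5p was at 1.11 (adjusted p = 0.479) and miR-495 at -2.23 (adjusted p = 0.0695).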
